A study of Mus musculus with 2 samples.

Results

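The replication-dependent histone genes are the genes that supply new histones when DNA is copied. They were taken as all genes with a protein-coding transcript whose name starts with Hist1h, Hist2h, Hist3h or Hist4h in the deposited transcript tables. This gave 67 of 55536 annotated genes, with 6 for the linker histone H1, 18 for H2A, 18 for H2B, 12 for H3 and 13 for H4. Of these, 54 lay in the Hist1 cluster on chromosome 13, 10 in the Hist2 cluster on chromosome 3, 2 in the Hist3 cluster on chromosome 11, and Hist4h4 stood on chromosome 6. All coordinates are those of the GENCODE M21 annotation of mm10. The 3 entries with such names that are annotated only as pseudogenes (Hist3h2bb-ps, Hist1h2aj and Hist1h2al) were not members.

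The cells were macrophages grown from bone marrow of C57BL/6J mice, and the RNA was total RNA of the nucleoplasm, depleted of ribosomal RNA. The nucleoplasm is the soluble part of the nucleus, and another label of the same samples reads nuclear fraction. All cells had received lipid A, the TLR4-binding part of bacterial lipopolysaccharide, at 100 ng/ml for 12 h, then a washout of 12 h, then 100 ng/ml again for 25 min. Age and sex of the mice were not given. The 2 libraries formed a group of 2 biological replicates, prepared from 500 ng (replicate 1) and 1 µg (replicate 2) of starting material. Replicate and starting amount therefore cannot be told apart, and the labels name the same donor entry for both, so the spread between libraries may be technical. No untreated sample was analysed here, so no effect of lipid A is given. With 2 libraries the smallest p of an exact two-sided sign-flip test is 0.5, so differences between the libraries are given as values without a test. The libraries held 20196408 and 19588980 expected counts. In bulk RNA, fewer cells of a type and less RNA per cell cannot be told apart.

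Histone mRNAs of this kind are made in S phase, when the cyclin E and CDK2 kinase acts on NPAT at the histone gene clusters. Most of these genes have no introns, and their mRNAs end without a poly(A) tail. The 3' end is cut by the U7 ribonucleoprotein just after a short stem-loop, which the protein SLBP holds during processing, export and translation. When DNA synthesis stops, the stem-loop marks the mRNA for uridylation and decay. Macrophages that differentiate leave the cell cycle, and some histone genes can then give longer, polyadenylated transcripts. The replication-independent variants, such as those from H3f3a and H3f3b, are made from ordinary polyadenylated mRNAs throughout the cell cycle.

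The stem-loop was searched for in the annotated transcripts as a stem of 6 pairs that opens with GG and closes with CC, around a loop of 4 bases with T at positions 1 and 3 of the loop. It was found in 46 of 67 members (68.7%), always 21 to 58 bases after the stop codon (median 31). By the same search it was found in a coding transcript of 159 of 22028 protein-coding genes (0.722%). In 15 of the 21 members without it, the annotated model ended within 10 bases of the stop codon, so no stem-loop could be seen there. The members carried 8 forms of the stem-loop. The following stretches from the GENCODE M21 transcripts show the forms in the members described most below, each with the 16-base stem-loop in capitals and up to 5 bases on either side.
Hist1h1c: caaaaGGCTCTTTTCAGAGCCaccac
Hist3h2a: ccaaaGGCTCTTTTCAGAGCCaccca
Hist2h2ac: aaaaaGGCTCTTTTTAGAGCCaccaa
Hist1h4m: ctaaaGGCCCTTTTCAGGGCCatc
Hist1h4i: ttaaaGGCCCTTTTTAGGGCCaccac
Hist1h4a: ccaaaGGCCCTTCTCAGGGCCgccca
These lie at chr13:23739507-23739532 (plus strand) for Hist1h1c, chr11:58955167-58955192 (plus strand) for Hist3h2a, chr3:96220413-96220438 (minus strand) for Hist2h2ac, chr13:21812124-21812147 (plus strand) for Hist1h4m, chr13:22040961-22040986 (minus strand) for Hist1h4i and chr13:23760795-23760820 (minus strand) for Hist1h4a. The form of Hist1h1c and Hist3h2a was that of 26 members, from H1 (3), H2A (10), H2B (8) and H3 (5), and of no H4 gene. The form of Hist1h4m was that of 7 members, all H4, and that of Hist1h4i of 2 H4 genes. Hist2h2ac and Hist1h4a each carried a form that no other member had. For Hist1h4m the annotated transcript ended 3 bases after the stem-loop, and for Hist3h2a it went on for 1643 bases more.

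Promoter sequences are shown because the families differ in the motifs they carry. A relation of the motifs to the ratio between libraries was not tested. RefSeq windows (GRCm38.p6) of 250 bases before to 50 after the start matched 62 members, and for 61 of these the RefSeq start lay within 100 bases of the GENCODE start. Windows of an H1 gene, of an H2B gene that shares its promoter region with a divergent H2A gene, and of the highest H4 gene are shown, with every motif match in capitals. The TATA box was searched for as TATAAA and the CCAAT box by the letters of its name. The octamer, which OCT1 binds, was searched for as ATTTGCAT. The H1 box of H1 promoters was searched for as AAACACA. All were searched for on both strands, and none of these strings contains another.
Hist1h1c: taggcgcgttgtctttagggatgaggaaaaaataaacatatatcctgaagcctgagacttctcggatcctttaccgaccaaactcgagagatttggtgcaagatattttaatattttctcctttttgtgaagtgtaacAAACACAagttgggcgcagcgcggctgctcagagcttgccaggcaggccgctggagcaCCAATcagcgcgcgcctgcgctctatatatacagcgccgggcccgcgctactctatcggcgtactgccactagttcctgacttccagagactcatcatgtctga
Hist1h2bg: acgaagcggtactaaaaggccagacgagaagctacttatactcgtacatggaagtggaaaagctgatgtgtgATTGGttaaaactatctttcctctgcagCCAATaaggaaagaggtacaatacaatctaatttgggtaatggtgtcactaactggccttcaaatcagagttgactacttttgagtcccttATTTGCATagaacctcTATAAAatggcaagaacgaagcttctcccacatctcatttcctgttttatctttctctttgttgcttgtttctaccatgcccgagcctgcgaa
Hist1h4m: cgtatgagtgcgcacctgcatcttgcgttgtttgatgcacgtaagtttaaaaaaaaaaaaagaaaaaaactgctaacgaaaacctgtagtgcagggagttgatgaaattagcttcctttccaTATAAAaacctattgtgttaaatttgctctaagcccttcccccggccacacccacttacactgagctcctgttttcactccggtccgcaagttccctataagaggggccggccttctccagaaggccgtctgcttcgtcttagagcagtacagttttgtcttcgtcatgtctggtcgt
The first window is chr13:23738557-23738856 (plus strand), the second chr13:23571150-23571449 (plus strand) and the third chr13:21811496-21811795 (plus strand). The window of Hist1h2ae, chr13:23571171-23571470 on the minus strand, covers most of the same bases as that of Hist1h2bg. CCAAT was found in 53 of 62 windows (85.5%, against 37.4% of all 32851 RefSeq windows), in all of those of H1, H2A, H2B and H3 and in 3 of 12 of H4. TATAAA was found in 35 windows (56.5%, against 13.6%). The octamer was found in 13 windows, 7 of H2A and 6 of H2B (21%, against 1.74%). The H1 box was found in 9 windows, 5 of them among the 6 H1 genes (14.5%, against 7.18%). A match describes letters and not a bound site.

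The members share much of their sequence, which bears on the values of single genes. Proteins were read from the longest protein-coding transcript of each gene. By this reading all 13 H4 genes encode 1 protein and the 12 H3 genes encode 3. The 18 H2A genes encode 9, the 18 H2B genes 12 and the 6 H1 genes 6. Hist2h3c1, Hist1h2bp, Hist1h2bq and Hist1h2br also have a protein-coding transcript with a shorter coding sequence, so the H3 and H2B numbers may depend on this choice. In the longest protein-coding transcript of each gene, the share of 50-base windows that occur in no other annotated gene had a median of 98.9% in H1, 60.5% in H4, 52.5% in H2B, 38% in H3 and 27.0% in H2A. It was 0% for Hist2h2aa2, Hist2h3c1 and Hist1h2bq (2.75% in a further transcript of Hist1h2bq, which held most of its counts), so the split of reads between these and their copies is uncertain, and sums over a family depend less on it. The posterior SD of the count that the deposited tables give shows this: it was 18.5 and 26.1 beside 106 and 281 counts for Hist2h2aa2, and 0 and 0.90 beside 220 and 593 counts for Hist1h1c.

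Histone mRNAs made up a small part of each library. Summed over all 67 members they reached 181 TPM (a level scaled to a fixed total per library and divided by effective length) in replicate 1 and 366 TPM in replicate 2, or 273 ± 130 (SD, n = 2). This rested on 2935 and 5606 expected counts, 0.0145% of the first library (95% Wilson interval 0.0140 to 0.0151%) and 0.0286% of the second (0.0279 to 0.0294%), intervals that cover counting error only. With at least 10 expected counts in both libraries, 34 of 67 members were detected, against 51.7% of all protein-coding genes. At least 1 TPM in both was reached by 37 of 67, against 44.9%. Detection of the members thus lay close to its background. The median member had 1.23 TPM in replicate 1 and 2.12 in replicate 2, above 54.4% and 59.2% of protein-coding genes. Hist3h2a, the highest member, lay above 89.3% and 93.8% of them.

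Of the 33 members not detected, 19 had counts in both libraries, 9 were at 0 in 1 library and 5 were listed at 0 in both. Those 5 were Hist1h2aa, Hist1h2ah, Hist1h2ao, Hist1h2ba and Hist1h2bp. Hist1h2aa and Hist1h2ba are known as the testis-specific H2A and H2B genes. A count of 0 allows up to 3 counts, or 1.49e-05% and 1.53e-05% of the libraries. The other testis-specific gene, Hist1h1t, had 1 and 4 counts.

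**Figure D1:**
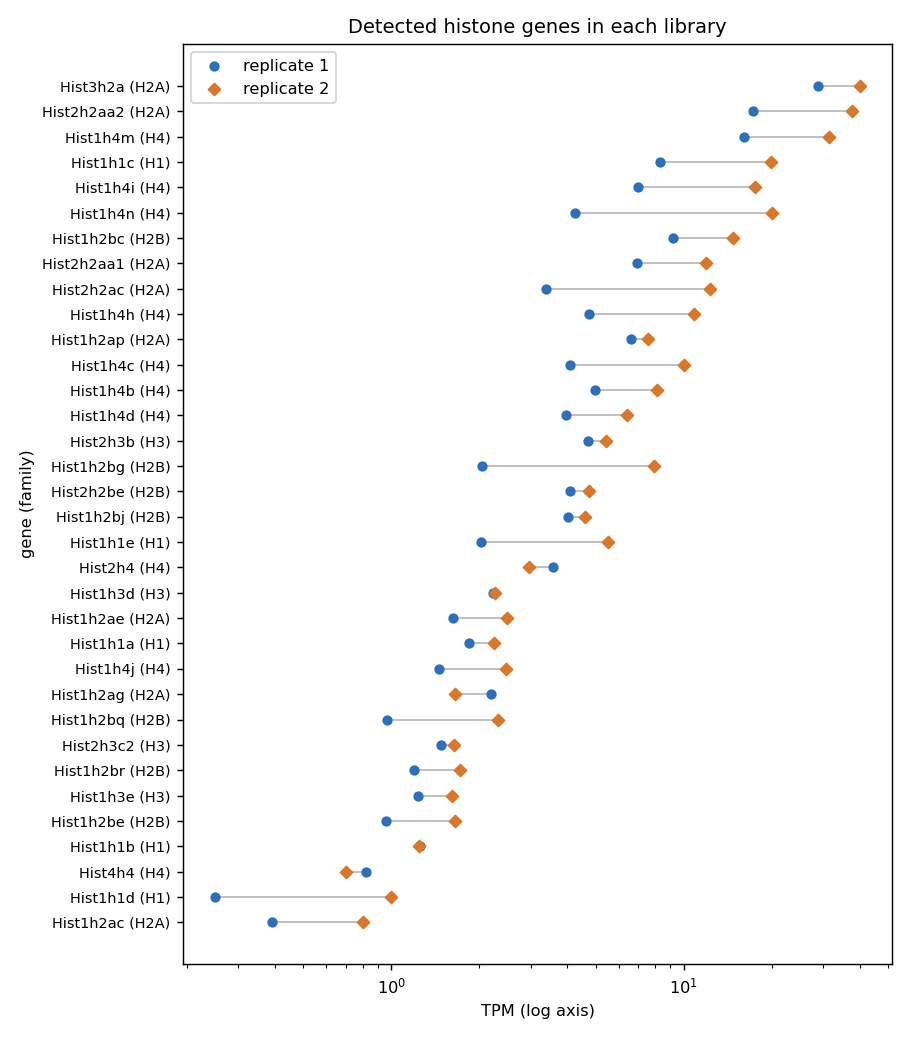
Each row is a detected histone gene (family in brackets), with its TPM on a log axis in replicate 1 (circle) and replicate 2 (diamond). Hist3h2a is highest in both libraries (28.7 and 40.1 TPM), and 4 of the 34 genes (Hist2h4, Hist4h4, Hist1h2ag and, by 0.01 TPM, Hist1h1b) lie lower in replicate 2. In the kallisto-layout TPM, whose scale differs between the libraries, 33 of 34 lie lower in replicate 2.

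H1 genes encode the linker histone that binds DNA where it enters and leaves the nucleosome. Hist1h1c led the family with 8.27 TPM in replicate 1 and 19.8 in replicate 2. Hist1h1e followed with 2.02 and 5.50 TPM. These were the H1 genes with the most reads, at 220 and 593 counts for Hist1h1c and 68.7 and 209 for Hist1h1e. Hist1h1a had 1.84 and 2.24 TPM, and Hist1h1b 1.25 and 1.24, on 13 and 15 counts. Hist1h1d had 0.25 and 1.00 TPM over an annotated transcript of 7425 bases, and 36.3 and 157 counts. On TMM-normalised CPM (counts scaled to library size, with no division by length, and here and below with 0.1 added before the log2 ratio) Hist1h1d, Hist1h1e and Hist1h1c were 2.20, 1.71 and 1.56 log2 units higher in replicate 2, and Hist1h1a and Hist1h1b 0.60 and 0.31. The kallisto-layout table gave Hist1h1d 212 and 267 estimated counts, so the size of its ratio is uncertain. Estimated counts summed to 34774610 and 27988909 over the libraries, and are given unscaled here and below.

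H2A forms a dimer with H2B, and the pair sits on the outer face of the nucleosome core. Hist3h2a was the highest member of all, at 28.7 and 40.1 TPM on 1099 and 1711 counts. It held 15.9% of the members' TPM in replicate 1 and 11.0% in replicate 2. Its annotated transcript of 2146 bases shares 708 bases with Trim17 on the same strand, a gene with 148 and 98.0 counts (2.65 and 1.58 TPM). Trim17 was lower in replicate 2 where Hist3h2a was higher, and the part of shared reads in Hist3h2a was not tested. Without Hist3h2a the members' sum was 152 and 325 TPM.

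The near-copies Hist2h2aa2 and Hist2h2aa1 came next among H2A genes, with 17.3 and 37.8 TPM and with 6.90 and 11.9 TPM. Both overlap antisense genes over their whole length (Gm20632 and Gm20633), and Hist2h2aa1 also shares 529 bases with Gm20634 on the same strand (315 and 381 counts). Hist2h3b and Hist2h2bb are likewise covered whole by the antisense gene Gm20628, and without a stated strand setting the reads of a gene and its antisense partner cannot be told apart. Hist2h2ac had 3.39 and 12.3 TPM, and Hist1h2ap 6.62 and 7.55. Hist1h2ag was among the 4 members lower in replicate 2, with 2.20 and 1.65 TPM on 11.6 and 10.7 counts. Over the 18 H2A genes the sum was 74.3 and 129 TPM.

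Among H2B genes, Hist1h2bc led with 9.16 and 14.7 TPM. Hist1h2bg, the divergent partner of Hist1h2ae, had 2.05 and 7.92 TPM, while Hist1h2ae had 1.63 and 2.48. In counts the partners stood at 16.2 and 74.5 for Hist1h2bg and at 15.7 and 27.9 for Hist1h2ae. In the kallisto-layout table they stood at 57.9 and 123 and at 39.7 and 43.9, so the level of Hist1h2bg in replicate 1 differs between the tables, while it was the higher of the pair in both tables and libraries. Hist2h2be had 4.09 and 4.76 TPM on 195 and 252 counts, and all of its 50-base windows were its own. Hist1h2bj had 4.03 and 4.59 TPM. Hist2h2bb had 1.5 and 4.08 TPM on 4.81 and 17.4 counts, which is under the limit for detection in replicate 1. Hist1h2ba, Hist1h2bp, Hist1h2bk, Hist1h2bl, Hist1h2bn and Hist3h2ba were at 0 in at least 1 library.

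H3 and H4 form the inner tetramer of the nucleosome, and yet their genes stood far apart in level. The 12 H3 genes summed to 15 and 18.3 TPM, and the 13 H4 genes to 52.5 and 139 TPM. The highest H3 gene, Hist2h3b, had 4.72 and 5.43 TPM. Hist1h3d had 2.22 and 2.26 TPM, Hist1h3h 1.39 and 2.03, and Hist2h3c2 1.48 and 1.64. Hist2h3c1 had 105 counts (3.30 TPM) in replicate 1 and 0 in replicate 2. Its whole transcript lies within Gm20634 on the same strand, which had 315 and 381 counts, and it has no window of its own, so its count in replicate 1 is uncertain. H3 counts were 228 and 199 with Hist2h3c1 and 123 and 199 without it.

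Of the H4 genes, which all encode the same protein, Hist1h4m was highest with 16.1 and 31.3 TPM. Hist1h4n had 4.25 and 20.0 TPM, and Hist1h4i 6.99 and 17.6. Hist1h4h had 4.75 and 10.8 TPM. All 4 of these were higher in replicate 2 by at least 0.92 log2 units. Hist1h4k, annotated only as its coding sequence of 312 bases, had 1.08 and 24.2 TPM on 2.07 and 68.3 counts. In the kallisto-layout table Hist1h4k had 38.1 and 158 estimated counts, so its level in replicate 1 differs widely between the tables. Hist2h4 (3.57 and 2.96 TPM, 100 and 93.0 counts) and Hist4h4 (0.82 and 0.70 TPM, 43.0 and 41.0 counts) were the H4 genes whose TPM was not higher in replicate 2, and on TMM-normalised CPM they were 0.04 and 0.07 log2 units higher. They stand outside the Hist1 cluster, and 99.0% and 93.2% of their windows are their own.

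By family, H2A held 38.1 ± 4.12% of the members' TPM (SD, n = 2), H4 33.5 ± 6.35%, H2B 13.9 ± 0.36%, H1 7.90 ± 0.46% and H3 6.65 ± 2.34%. H2A was above H4 in replicate 1 (41.0% against 29.0%) and below it in replicate 2 (35.2% against 38%), so their order does not hold across libraries. H2B followed these in both. H1 was below H3 in replicate 1 (7.57% against 8.31%) and above it in replicate 2 (8.22% against 5.0%). By counts, which favour long transcripts, H2A held 47.2% and 42.7% and H4 only 16.1% and 19.5%. The 5 highest members (Hist3h2a, Hist2h2aa2, Hist1h4m, Hist1h1c and Hist1h4k) held 40.7 ± 1.71% of the TPM and the 20 highest 80.7 ± 2.15%. The place of Hist1h4k among these 5 rests on replicate 2, where it held 6.61% of the members' TPM, against 0.597% in replicate 1.

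**Figure D2:**
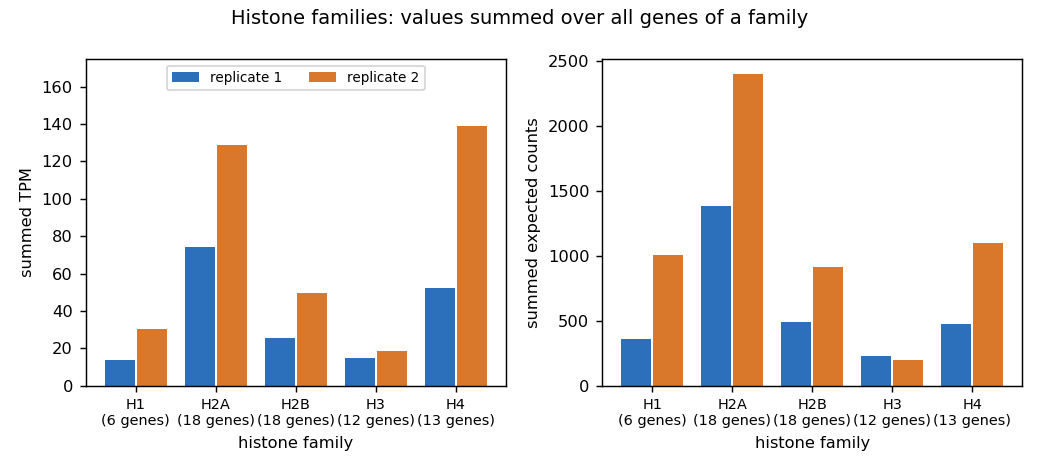
Bars give the summed TPM (left) and summed expected counts (right) of each histone family in replicate 1 and replicate 2. H2A and H4 lead by TPM, and H2A alone leads by counts. The H3 bars are the closest of the 5 families between libraries, with counts lower in replicate 2 (228 and 199) and TPM higher (15 and 18.3). Without Hist2h3c1, whose count in replicate 1 is uncertain, H3 counts were 123 and 199. Kallisto-layout TPM, whose scale differs between the libraries, was lower in replicate 2 in every family (7.72 and 2.52 for H3).

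The annotated transcripts of the members end at very different distances from the stem-loop, so the classes below were set by that distance, after values had been seen. In 23 members the transcript ended within 100 bases of the stem-loop, from 3 bases after it (Hist1h4m) to 74 (Hist1h3c). This class is therefore not limited to models that end just after the stem-loop, as a processed histone mRNA does. In 23 it went further, to annotated lengths of up to 7425 bases. In 6 members no stem-loop was found in the longer 3' sequence, and in 15 the model ended within 10 bases of the stop codon. Of the 6, Hist2h3b and Hist1h1a had only 37 and 48 bases annotated after the stop codon, so a stem-loop further on would be missed. Members with a model reaching past the stem-loop held 67.9 ± 3.35% of the members' counts (SD, n = 2) and 38 ± 4.24% of their TPM. Members ending near the stem-loop held 15.9 ± 3.96% of counts and 43.2 ± 2.51% of TPM. A count on a long model does not say on which side of the stem-loop a read lay, since the tables give no positions.

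In summed counts, the ratio of replicate 2 over replicate 1 was larger in members ending near the stem-loop than in those extending past it. Counts were 385 and 1049 (2.73-fold) in the first class and 2062 and 3673 (1.78-fold) in the second. They were 446 and 723 (1.62-fold) where no stem-loop was found in a longer model, and 42.0 and 161 (3.84-fold) where the model ended at the stop codon. Without Hist1h4k the last class held 39.9 and 92.8 counts (2.33-fold), and without Hist3h2a the class extending past the stem-loop held 963 and 1962 (2.04-fold). That class still included Hist2h3c1, with an uncertain 105 counts in replicate 1 and 0 in replicate 2. The class ending near the stem-loop included Hist1h4n, with 17.7 and 106 counts and 14.4% of windows its own. The size of the difference between these 2 classes is therefore uncertain. The kallisto-layout estimated counts gave 2.06-fold, 1.30-fold, 1.09-fold and 2.36-fold in the same order of classes. None of these folds is scaled to library totals. The totals were 34774610 and 27988909 estimated counts, against 20196408 and 19588980 expected counts, so the 2 sets of folds are not on the same footing. These differences between classes were not tested.

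**Figure D3:**
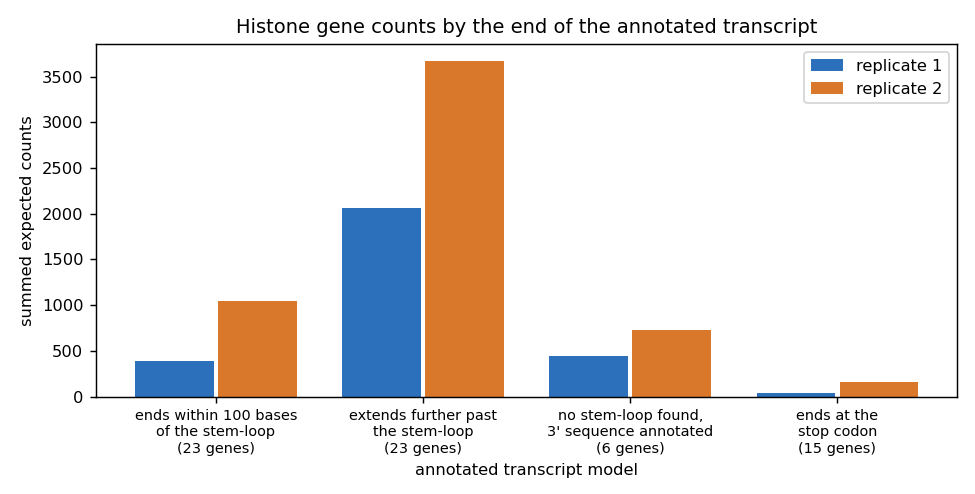
Bars give the summed expected counts of the members in replicate 1 and replicate 2, grouped by where the annotated transcript ends. Members whose model extends further past the stem-loop hold most counts (2062 and 3673), and those ending within 100 bases of it hold 385 and 1049.

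Relative to the median of all genes, the histone genes stood higher in replicate 2. Across all 14596 detected genes the median log2 ratio of replicate 2 over replicate 1, on log2(TPM + 1), was -0.21, and over the 34 detected members it was 0.48, or 0.69 above that of all genes. Of the 34, 33 lay above the all-gene median, the exception being Hist1h2ag. In TPM, 30 were higher and 4 lower in replicate 2, against 4274 higher and 10271 lower of all 14596 detected genes. At least 2-fold higher were 9 of 34, against 1.00% of all detected genes, and at least 2-fold lower were 0, against 2.80%. The kallisto-layout TPM turned the sign, with a median of -0.65 for members beside -1.57 for all genes, and there too the members lay 0.92 above all genes. Over all 67 members, 54 were higher, 8 lower and 5 at 0 in both. Stromal and endothelial markers summed to 12.2 TPM in replicate 1 and 20.1 in replicate 2, and only Kdr rose (9.67 and 18.3). In TPM, Pecam1 (2.02 and 1.48), Cdh5 (0.47 and 0.30), Col1a1 (0.05 and 0) and Col3a1 (0.01 and 0) were lower in replicate 2, while Cdh5 had 7 and 25 counts. The part of such cells, or of the starting amount, in the difference was not tested.

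Single ratios depend on how shared reads were split: Hist1h4n, with 14.4% of windows its own, had 17.7 and 106 expected counts but 44.7 and 110 estimated counts in the kallisto-layout table. The largest ratios in the RSEM-layout TPM, on log2(TPM + 1), were those of Hist1h4n (2.00), Hist2h2ac (1.59), Hist1h2bg (1.55), Hist1h4i (1.22) and Hist1h1c (1.17). The smallest were those of Hist1h2ag (-0.27), Hist2h4 (-0.21), Hist4h4 (-0.10), Hist1h1b (-0.01) and Hist1h3d (0.02). By family the median was 0.76 in H4, 0.68 in H1, 0.44 in H2A, 0.44 in H2B and 0.13 in H3. On TMM-normalised CPM all 34 were higher in replicate 2, with medians of 1.56 in H1, 1.32 in H4, 1.02 in H2A, 1.02 in H2B and 0.53 in H3. H3 was lowest on both scales, over 4 detected genes of 12. Among H3 genes under the count limit, the log2(TPM + 1) ratio was 1.74 for Hist1h3a and -2.10 for Hist2h3c1. Over all 12 H3 genes, 11 were higher and 1 lower in TPM in replicate 2.

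Short genes without introns were compared, since most members are such genes. Other protein-coding genes with a sole exon numbered 211, with a median log2 ratio of 0.04 on TMM-normalised CPM, beside 1.03 for the 34 members with the same 0.1 added. The 29 of these under 1000 bases had a median of 0.12. In TPM, 2.84% of the 211 and 3.45% of the 29 were at least 2-fold higher in replicate 2, against 0.566% of other protein-coding genes, 1.00% of all detected genes and 26.5% of the members.

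**Figure D4:**
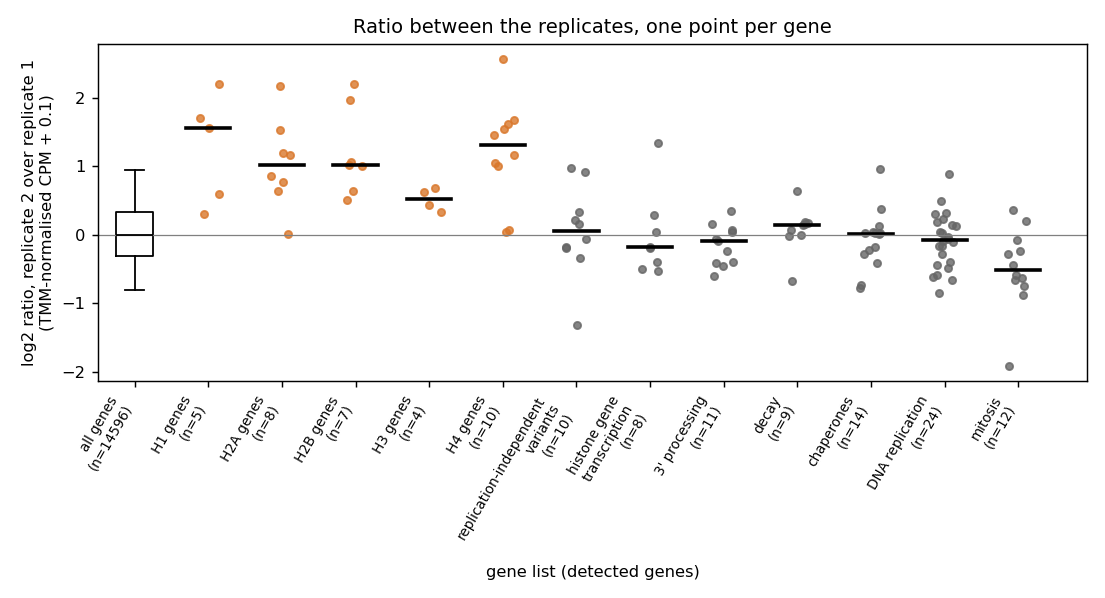
Each point is a detected gene, placed by its log2 ratio of replicate 2 over replicate 1 on TMM-normalised CPM with 0.1 added, by family or gene list; black bars are medians, and the box gives the quartiles of all 14596 detected genes with whiskers at the 5th and 95th percentiles. On this scale all 34 detected histone genes lie above 0, with family medians from 0.53 to 1.56, while the other lists have medians from -0.52 (mitosis) to 0.15 (decay).

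Replication-independent histone variants were higher in sum and in median, and as a set did not show the same difference between libraries. Their 11 genes summed to 570 and 582 TPM, of which H3f3b alone held 411 and 401 TPM. Their median was 9.03 and 19.0 TPM, beside 1.23 and 2.12 for the members. H2afy, for macroH2A, had 52.3 and 66.5 TPM, H3f3a 46.5 and 44.5, H2afz 20.9 and 19.1, H1f0 14.5 and 23.2, and H2afj 9.03 and 19.0. H2afv had 5.74 and 3.52 TPM, Cenpa, the centromeric H3, 6.56 and 2.51, H2afx 2.08 and 1.30, H2afy2 1.43 and 1.01, and H1fx 0 and 0.04. The median of log2(TPM + 1) was 2.43 ± 0.36 lower over the 67 members than over these 11 genes (difference -2.43, SD, n = 2). Of the 10 detected variants, 3 were higher and 7 lower in replicate 2 (4274 and 10271 of all 14596 detected genes). On log2(TPM + 1), 0 were at least 2-fold higher and 1 (Cenpa) was at least 2-fold lower. H2afj lay just under the limit with a log2 ratio of 0.997, and its TPM without the added 1 was past 2-fold.

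Genes of DNA replication were present without the difference that the histones showed. All 24 in the list were detected, with 127 and 100 TPM in sum, 6 higher and 18 lower in replicate 2 and a median log2 ratio of -0.23 beside -0.21 for all genes. Of all 14596 detected genes, 10271 were lower in TPM. On TMM-normalised CPM 10 of the 24 were higher, with a median of -0.08, beside 7323 of all 14596 genes. Pcna, the sliding clamp of the replication fork, had 37.0 and 27.3 TPM, Tk1 16.6 and 12.9, and Mcm6, of the replicative helicase, 9.69 and 8.27. The 13 mitosis genes summed to 26.7 and 18.0 TPM, with 12 detected, 2 higher and 10 lower on both scales. Mki67, a marker of cycling cells, had 8.11 and 5.89 TPM, Top2a 5.26 and 2.43, and Cdk1 1.65 and 3.09.

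Genes that act on the histone genes and their mRNAs were detected with few exceptions. The numbers higher and lower are in TPM, in which 10271 of all 14596 detected genes were lower in replicate 2. Of 8 genes for histone gene transcription all were detected, 3 higher and 5 lower in replicate 2, with Hinfp at 16 and 17.8 TPM, Casp8ap2 (FLASH) at 11.4 and 5.17, Cdk2 at 12.8 and 9.09, E2f1 at 6.58 and 5.55 and Npat at 5.31 and 3.37. Of 12 genes for 3' processing, 11 were detected, 1 higher and 10 lower. Slbp had 15.1 and 13.2 TPM, and Lsm10 and Lsm11, of the U7 particle, 8.14 and 7.14 and 0.69 and 0.43. Srrt had 65.1 and 55.9 TPM, Cpsf3, the endonuclease, 22.7 and 15.7, and Sympk 22.4 and 27.8. The U7 RNA gene Rnu7, far shorter than the fragments, was listed at 0 in both libraries.

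For decay, all 9 genes were detected, 2 higher and 7 lower, led by Tut7, a uridylyltransferase, at 107 and 89.2 TPM, Xrn1 at 34.4 and 32.1 and Dcp2 at 24.5 and 28.2. Of the 14 histone chaperones all were detected, 2 higher and 12 lower, with Daxx at 92.2 and 154 TPM, Atrx at 134 and 86.2 and Npm1 at 57.7 and 24.0. In TPM the 7 lists had median log2 ratios between -0.38 (mitosis) and -0.09 (variants), beside -0.21 for all genes and 0.48 for the members. On TMM-normalised CPM the sign of the median turned for variants (0.05), decay (0.15) and chaperones (0.01), and no list came near the 1.03 of the members.

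Markers of the labelled cell type were high in both libraries. All 10 macrophage markers were detected and summed to 3613 and 3149 TPM, led by Lyz2 (1640 and 1365), Adgre1 (691 and 675) and Csf1r (522 and 349). Markers of other marrow cell types were lower by far. Myeloid progenitor markers, 0 of 5 detected, summed to 0.09 and 0 TPM, with counts from Prtn3 alone and Cd34, Mpo, Ctsg and Elane listed at 0. Neutrophil markers, 0 of 5 detected, summed to 0.35 and 1.00 TPM (S100a9 and S100a8 only), with Ly6g, Cxcr2 and Retnlg listed at 0. The kallisto-layout table gave Cxcr2 2.21 and 0.43 TPM, Cd34 0.77 and 0.14, and Mpo 0.73 and 0.07. Among lymphocyte markers, Cd8a and Ms4a1 each had 0.11 and 0.08 TPM. Among erythroid markers, Alas2 had 1.52 and 2.95 TPM, Hbb-bs 0.25 and 0.10 and Klf1 0 and 0.07, and Hba-a1 was listed at 0. Dendritic cell markers, 3 of 5 detected, summed to 2.82 and 2.46 TPM, with Ccr7, Zbtb46 and Siglech highest. Mast cell and basophil markers, 1 of 4 detected, summed to 1.48 and 1.20 TPM, mostly Kit, then Ms4a2 and Cpa3. Of the 5 stromal and endothelial markers 2 were detected, Kdr and Pecam1, and Cdh5 followed at 0.47 and 0.30 TPM.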

How the data were processed

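Ribosomal-RNA-depleted total RNA of 2 libraries was quantified on mm10 with GENCODE M21, per the submitters' processing notes; which programs and which strand setting were used is not stated in these sources. The deposited expected counts, TPM and posterior mean TPM come from tables with the layout RSEM writes, per the file headers, and a further deposited table, with the layout kallisto writes, gives estimated counts and TPM. TPM divides by effective length, which is small for short RNAs. From these, sums, shares and log2(TPM + 1) ratios (pseudocount 1) were computed with Python 3.11.15, numpy 2.4.6 and pandas 2.3.3. Expected counts were rounded for TMM factors (edgeR 4.0.16) and size factors (DESeq2 1.42.0), used only for scaling, in R 4.3.3; the scaling step was tested on simulated data. Detected means at least 10 expected counts in both libraries. Gene sequences came from the GENCODE transcripts and RefSeq promoter windows.

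Members, gene lists and alternatives were chosen with earlier results of these data known. Named were the 5 members of each family with the highest mean TPM, the 5 with the largest and the 5 with the smallest ratio, members at 0 in both libraries, every replication-independent variant, the 3 highest genes of each other list, and 8 preset genes (Slbp, Npat, Casp8ap2, Lsm10, Lsm11, E2f1, Mki67 and Pcna). Other members were named after their values were seen. Some genes of the marker lists are not reported here. No paper was used and no test between conditions was possible.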

Additional observations from a re-analysis of the deposited data

How the results depend on the processing

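The alternatives leave the members' position above the median of all genes in place and move levels and shares. The kallisto-layout TPM turned the median log2 ratio to -0.65, beside -1.57 for all genes. With 1 added unless stated, it was 0.76 on TMM-normalised CPM (all genes 0.00; 1.03 with the 0.1 added in the report), 1.04 with DESeq2 size factors (-0.02), 0.76 with TPM rescaled to protein-coding genes (-0.15), 0.69 with a pseudocount of 0.1 (-0.27) and 0.63 with at least 30 counts (-0.23). Members past 2-fold numbered 3 with kallisto-layout TPM (lower in replicate 2, as were 78.3% of all genes). They numbered 18 with DESeq2 size factors, all higher, beside 4.37% of all genes higher and 3.01% lower. With no filter they numbered 19 (1 of them lower), beside 0.861% and 1.13%. With at least 30 counts they numbered 5, all higher, beside 0.769% and 2.82%. Detected were 53 members with at least 1 count and 17 with at least 30. The share of protein-coding genes at these limits was not computed. Summed TPM was 82.8 in the kallisto-layout table (109 and 56.5) and 976 after rescaling to protein-coding genes. Its range without each replicate was 181 to 366. On TMM-normalised CPM, H1 held 15.1%, H2A 45.0%, H2B 16.5%, H4 17.8% and the 5 highest members 50.3%. H2B held 14.8% by posterior mean TPM, 14.9% by annotated length and 16.2% by kallisto-layout values. H1 held 9.81% by annotated length, and the 5 highest held 38.8% by posterior mean TPM. Without each replicate, H1 ranged from 7.57 to 8.22%, H2A from 35.2 to 41.0%, H2B from 13.6 to 14.1%, H3 from 5.0 to 8.31%, H4 from 29.0 to 38% and the 5 highest from 39.5 to 41.9%. The difference between members and replication-independent variants was -1.69 in the kallisto-layout table, -3.21 on TMM-normalised CPM, -2.81 after rescaling, -2.94 with a pseudocount of 0.1 and -1.60 over detected genes, and -2.68 to -2.17 without each replicate. The cause of these shifts was not tested. In all, 42 of 71 alternative values stayed within the spread set for them. These include the values without each replicate, which with 2 libraries always fall within the SD of the mean. For those values the tally is no measure of stability. The sum without Hist3h2a and the ratios over members with at least 50% unique windows (median 0.50 over 21) were added after seeing the data. No paired analysis was possible because the 2 libraries form 1 group. At these depths, values of members under about 10 counts carry little weight.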

Other observations

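Among the entries outside the 67 members, the pseudogene Hist3h2bb-ps had 6 expected counts in replicate 1 and 3 in replicate 2 (7 and 4 in the kallisto-layout table), the latter equal to the 3 counts that a count of 0 allows. Hist1h2aj and Hist1h2al had 0 expected counts in both libraries. The rank order of the 67 members by TPM had a Spearman correlation of 0.83 between the libraries. Between the RSEM-layout and the kallisto-layout mean TPM it was 0.95 over the same 67 genes. Both are descriptions across genes, which are not independent replicates and share reads. Over the 34 detected members the correlation between annotated length and the log2 ratio on TMM-normalised CPM was -0.15.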
